A study of Mus musculus with 201 samples.

Results

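The 10 genes examined here encode RNA-binding proteins that shape the RNA of neurons: *Rbfox1*, *Rbfox2*, *Rbfox3*, *Nova1*, *Nova2*, *Celf2*, *Celf4*, *Elavl2*, *Elavl3* and *Elavl4*. They were taken by symbol, and all 10 were found among the 42790 gene symbols listed for whole cells, the 42802 listed for nuclei of a mouse in a new environment (NE) and the 42774 listed for home cage (HC) nuclei. In dentate granule cells (DGCs), the principal neurons of the hippocampal dentate gyrus, *Celf2*, *Rbfox1*, *Rbfox3* and *Celf4* led in whole cells and *Celf2* stood above the others in nuclei. *Nova1*, *Elavl2* and *Elavl4* were detected in few cells of any group. None of the 10 differed by 1 or more on the log2 scale between FOS+ and FOS− nuclei, and of 8 compared *Celf4* alone did so between PTZ and saline cells, where it was lower, as were 9.22% of all genes compared, and where leaving out any 1 of 5 PTZ cells ended the call.

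Single cells and single nuclei were sequenced one by one, to ask how activated DGCs differ from inactive ones. Whole cells came from Prox1-GFP mice, in which GFP reports *Prox1*, and were sorted as GFP+ after protease dissociation, 1 h after an injection of saline or of 50 mg per kg PTZ, a GABA(A) receptor antagonist that causes seizures. The age of these mice was not given in the sources used here. NE nuclei came by Dounce homogenization from an 8-week-old female C57BL/6 mouse that had spent 15 min in a new cage and 1 h back in its own, and were sorted as PROX1+FOS+ or PROX1+FOS−. HC nuclei came from a C57BL/6 mouse of that age left in its cage, and were chosen as NEUN+PROX1+ on a microfluidic chip. By the methods, each treatment of the whole cells pooled 2 mice, while the series description speaks of 1 mouse. A group therefore stands for 1 mouse or 1 pool, cells are not replicates of a condition, and no test between groups was possible. Differences are given with the spread over cells, which measures cells and not animals.

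Splicing regulators of this kind help neurons to join exons in patterns that other cells do not use. Rbfox proteins bind GCAUG elements in introns, and the product of *Rbfox3* is the NEUN antigen used across neuroscience as a mark of neuronal nuclei. Nova proteins bind clusters of short elements in which CA is flanked by pyrimidines, and control exons of synaptic genes. Celf proteins bind GU-rich RNA, and the neuronal Elavl or Hu proteins bind U-rich and AU-rich RNA, where they stabilize transcripts and modulate splicing.

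Members of a family are similar in sequence, so whether reads could be told apart was examined first, in the GENCODE transcripts of GRCm38. No stretch of 31 bases was shared between the members of any of the 4 families, and reads were 50 bases long for NE nuclei and 100 bases for the other samples. The longest coding stretches in common within the Rbfox and Elavl families are shown because they mark how close the paralogs come. They are printed in lower case throughout, since every base is identical in both genes.

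*Rbfox1* and *Rbfox2*, 29 bases: accgtggtagagggccgtaaaatcgaggt
*Elavl3* and *Elavl4*, 29 bases: ttcggcttcgtcaccatgaccaactacga
*Elavl2* and *Elavl4*, 23 bases: accatgacccagaaggagctgga
*Rbfox1* and *Rbfox3*, 20 bases: caggatggattttatggtgc

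Sharing with other annotated genes was larger for 1 member. Of the 50-base stretches of *Nova2*, 30.8% also occurred in *Gm26821*, a lincRNA on the opposite strand at the same place, and the values of *Nova2* are therefore uncertain. *Gm26821* was listed with a TPM above 1 in 5 saline cells, 3 PTZ cells, 6 FOS− nuclei, 2 FOS+ nuclei and 1 HC nucleus. Of the 31-base stretches of *Celf2*, the share was 7.24%, mostly with the opposite-strand lincRNA *Gm26565*, which was above *Celf2* in 1 HC nucleus. *Gm26565* had a TPM above 1 in 4 saline cells, 1 PTZ cell, 14 FOS− nuclei, 14 FOS+ nuclei and 9 HC nuclei. Its part in the *Celf2* values was not tested. The share of 31-base stretches was 3.89% for *Elavl3* and 3.29% for *Nova1*, under 1% for *Celf4* and the Rbfox genes, and 0 for *Elavl2* and *Elavl4*.

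Cells with a total expected count over 50000 were kept, as were all HC nuclei: 38 saline cells, 30 PTZ cells, 41 FOS− nuclei, 40 FOS+ nuclei and 23 HC nuclei. Median totals were 975934, 1090755, 214421, 269061 and 165926 in that order. The number of genes per cell ran from 6185 ± 1398 (SD) in FOS+ to 6281 ± 1539 in FOS− nuclei, with the whole cells between, and 3237 ± 371 in HC nuclei, so low shares there stand beside lower gene numbers. *Prox1*, the DGC marker, was detected in every whole cell, in 34 of 41 FOS− and 33 of 40 FOS+ nuclei and 14 of 23 HC nuclei. Defining markers of other cell types (*Olig2*, *C1qa*, *Cldn5*) were at 0 in all 5 groups, whereas *Cx3cr1* was listed in 33 FOS− and 29 FOS+ nuclei. *Gad1* was detected in 33 saline and 21 PTZ cells, although *Slc32a1*, the vesicular GABA transporter, was at 0 in both. *Arc*, an immediate early gene, was detected in 31 of 40 FOS+ nuclei and in 1 of 41 FOS− nuclei.

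Single libraries held many transcripts of glial markers, and these were named after their values were seen. PTZ cell 22 held 3830 TPM in sum of 5 astrocyte markers, with *Gfap* at 833, *Slc1a3* at 2588 and *Gja1* at 409 TPM, whereas no other PTZ cell held more than 167 TPM of them. FOS+ nucleus 30 held 4304 TPM of 5 microglia markers, with *P2ry12* at 2980 and *C1qb* at 869 TPM and *Prox1* at 0, against at most 162 TPM in any other FOS+ nucleus. FOS+ nucleus 10 held 936 TPM of 5 oligodendrocyte markers, with *Mbp* at 503 TPM, against 518 TPM in the next FOS+ nucleus, together with 133 TPM of *Prox1* and 1078 TPM of *Snap25*. These 3 were the kept libraries of the 5 groups with at least 3 markers of 1 glial or endothelial list detected and over 500 TPM of them in sum, limits that were also set after the values were seen. By the sum alone another 2 FOS+ nuclei, at 518 and 584 TPM, and 3 HC nuclei also exceeded 500 TPM. In these HC nuclei the sum came from 1 astrocyte gene, *Slc1a3* at 2736 and 2762 TPM in nuclei 12 and 22 and *Gja1* at 669 TPM in nucleus 16. All of these libraries stay in the values below. Without the 3 HC nuclei *Rbfox3* was detected in 8, *Elavl3* in 7 and *Celf2* in all of the remaining 20 HC nuclei.

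**Figure D1:**
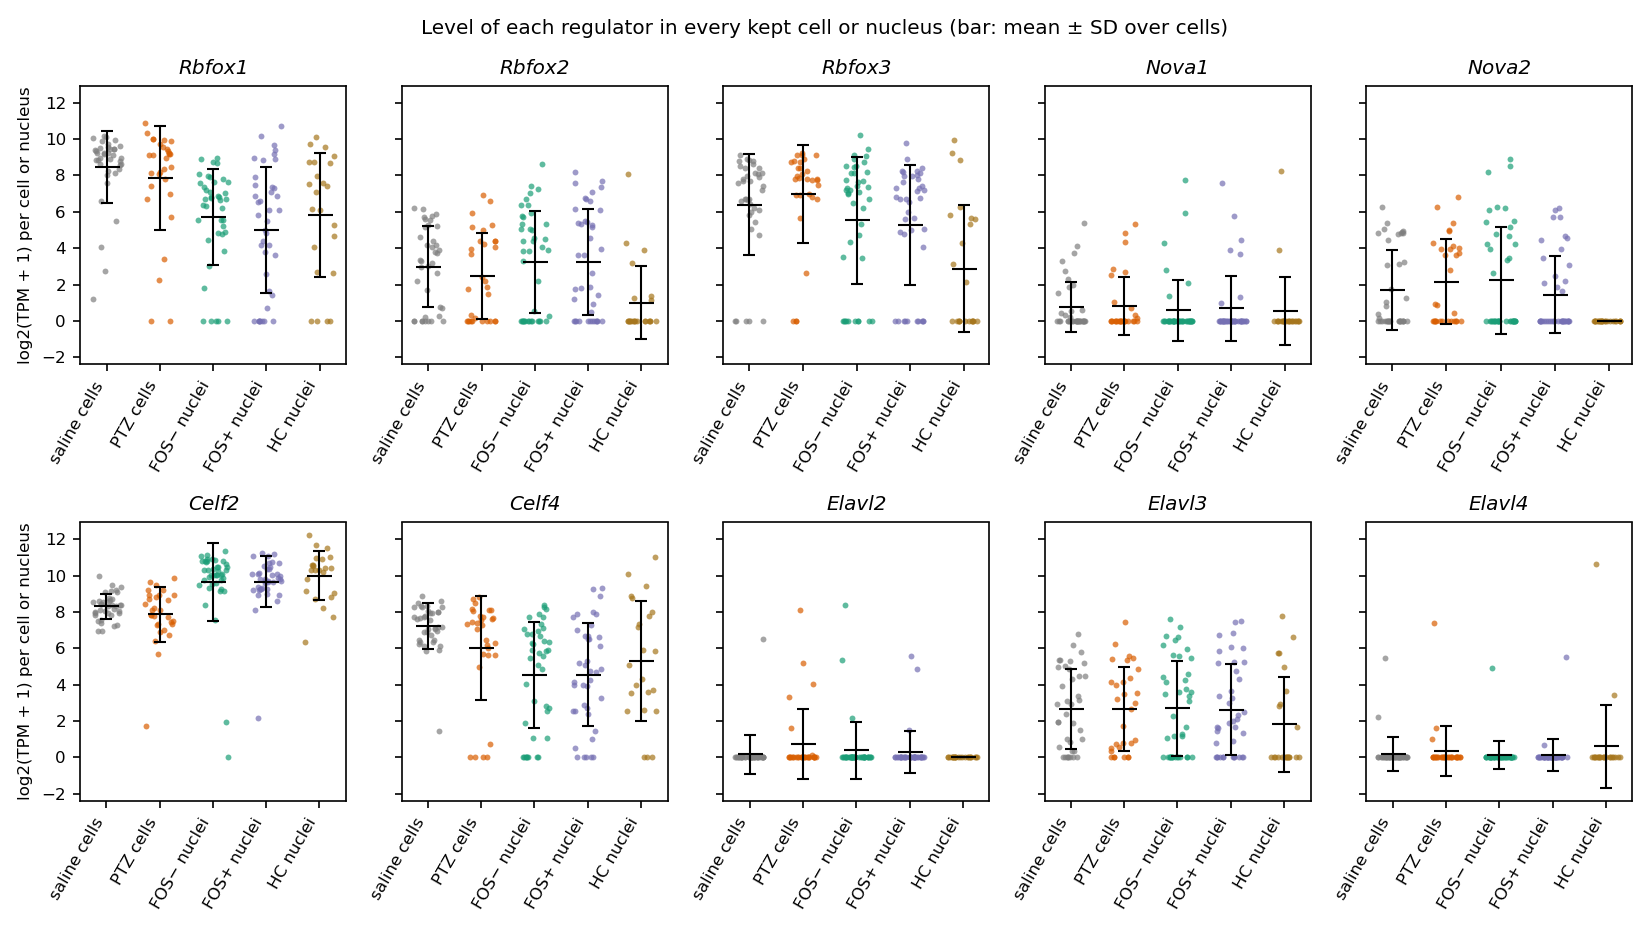
Level of each of the 10 genes as log2(TPM + 1) in every kept cell or nucleus (points), with the mean and SD over cells (black bars), for saline cells (n = 38), PTZ cells (n = 30), FOS− nuclei (n = 41), FOS+ nuclei (n = 40) and HC nuclei (n = 23). *Celf2* lies near 8 in whole cells and near 10 in nuclei, and *Elavl2*, *Elavl4* and *Nova1* lie at 0 in most cells. The error bars describe cells, not mice, and reach below 0 where many cells are at 0.

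*Celf2*, at chromosome 2, 6539694 to 7509563, on the minus strand (GRCm38), was detected in more cells than any other of the 10. A TPM above 1, the limit of detection used here, was reached in 38 of 38 saline cells, 30 of 30 PTZ cells, 40 of 41 FOS− and 40 of 40 FOS+ nuclei and 23 of 23 HC nuclei. TPM values had a lowest, median and highest value of 124, 325 and 1014 in saline cells and of 2.38, 248 and 933 in PTZ cells. The corresponding values were 0, 1082 and 2590 in FOS− nuclei, 3.47, 888 and 2432 in FOS+ nuclei, and 81.7, 1268 and 4765 in HC nuclei. Without FOS+ nuclei 10 and 30, the lowest *Celf2* value of a FOS+ nucleus was 271 TPM. All 5 ranges overlapped, and the medians were higher in the 3 groups of nuclei than in the 2 groups of whole cells. Whole cells and nuclei differ here in compartment, strain, dissociation and, in part, read length and platform, which cannot be told apart. Among all genes with a detected value in a group, the mean log2(TPM + 1) of *Celf2* ranked at the 98.3rd percentile in saline cells and at the 99.8th in both sorts of NE nuclei.

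*Rbfox1*, the longest of these loci at 1526 kb (chromosome 16, 5885355 to 7411526, plus strand), went the other way between the tables. It was detected in 38 of 38 saline cells, with 1.32, 524 and 1162 TPM as the lowest, median and highest value. In PTZ cells it was detected in 28 of 30, with values of 0, 525 and 1918 TPM. In nuclei it was found in 36 of 41 FOS− nuclei, at 0, 102 and 487 TPM, and in 31 of 40 FOS+ nuclei, at 0, 50.3 and 1681 TPM. It was found in 19 of 23 HC nuclei, at 0, 133 and 1117 TPM. The medians in whole cells were thus above those in nuclei, while the ranges overlapped.

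The order of *Celf2* and *Rbfox1* within a cell does not depend on the scaling of that cell, so it was counted cell by cell. *Rbfox1* had the higher TPM in 27 of 38 saline cells and 18 of 30 PTZ cells. *Celf2* had the higher TPM in 38 of 41 FOS− and 34 of 40 FOS+ nuclei and 21 of 23 HC nuclei. The mean within-cell difference on the log2 scale, *Celf2* minus *Rbfox1*, was -0.15 ± 2.11 (SD over cells) in saline cells and 3.96 ± 3.44 in FOS− nuclei. Among all 10 genes, *Rbfox1* was the highest in 25 saline and 17 PTZ cells, and *Celf2* in 37 FOS−, 33 FOS+ and 16 HC nuclei.

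**Figure D2:**
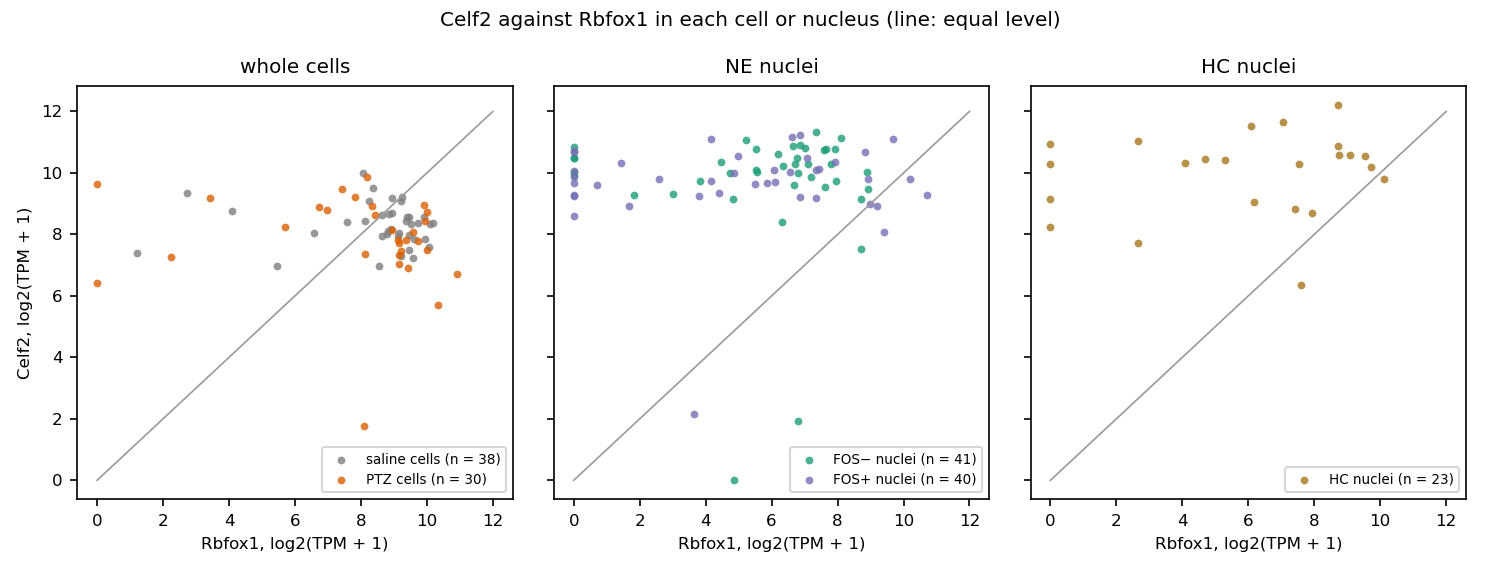
*Celf2* (vertical axis) against *Rbfox1* (horizontal axis), both as log2(TPM + 1), in each whole cell, NE nucleus and HC nucleus, with the line of equal level. Points fall on both sides of the line in whole cells, whereas *Celf2* lies above *Rbfox1* in 38 of 41 FOS−, 34 of 40 FOS+ and 21 of 23 HC nuclei.

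*Rbfox3* (chromosome 11, 118489762 to 118911597, minus strand) was detected in 33 of 38 saline cells and 27 of 30 PTZ cells. Its lowest, median and highest values were 0, 156 and 564 TPM in the former and 0, 221 and 603 TPM in the latter. It was detected in 31 of 41 FOS− nuclei, with a median of 136 TPM, and in 30 of 40 FOS+ nuclei, with a median of 103 TPM. In the HC nuclei, which were chosen for NEUN protein, its mRNA was detected in 11 of 23 (47.8%, 95% interval 26.8 to 69.4%), with a median of 0 and a highest value of 973 TPM. Intervals on shares are exact Clopper-Pearson intervals and cover counting error only.

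Cells in which *Rbfox3* was not detected held other members. Of the 10 such FOS− nuclei, 9 held *Celf2* and all 10 held *Rbfox1* or *Rbfox2*. Of the 10 such FOS+ nuclei, all 10 held *Celf2* and 8 held *Rbfox1* or *Rbfox2*. The 12 such HC nuclei held *Celf2* in 12 cases, *Rbfox1* in 11 and *Celf4* in 10. Among the 11 HC nuclei with *Rbfox3*, 8 held *Rbfox1* and 10 held *Celf4*. FOS− nuclei without *Rbfox3* held *Celf4* in 4 and *Elavl3* in 3 of 10 cases, against 29 and 23 of the 31 with it. FOS+ nuclei without it held *Celf4* in 7 and *Elavl3* in 5 of 10 cases, against 27 and 21 of the 30 with it. *Celf2* was present in every NE nucleus with *Rbfox3*. At least 1 of the 9 other members was present in every cell without *Rbfox3* of all 5 groups. Gene numbers were lower in NE nuclei without *Rbfox3*, with a median of 4997 against 6435 in FOS− nuclei and of 5172 against 6584 in FOS+ nuclei, and their part in the missing detection was not tested.

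*Rbfox2* (chromosome 15, 77078990 to 77307004, minus strand), the most broadly expressed gene of the family across tissues, was less abundant here than its relatives. It was detected in 26 of 38 saline cells, 18 of 30 PTZ cells, 25 of 41 FOS− and 26 of 40 FOS+ nuclei and 7 of 23 HC nuclei. Median TPM values were 9.17, 3.11, 14.1, 8.25 and 0, and the highest value of any cell was 398 TPM, in a FOS− nucleus. *Rbfox1* exceeded *Rbfox2* in 36 of 38 saline cells, 34 of 41 FOS− and 25 of 40 FOS+ nuclei. All 3 Rbfox genes were found together in 23 saline cells, 18 PTZ cells, 18 FOS− nuclei, 18 FOS+ nuclei and 1 HC nucleus. Cells with none of them numbered 2 among PTZ cells, 2 among FOS+ nuclei and 1 among HC nuclei.

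*Celf4* (chromosome 18, 25477632 to 25754157, minus strand), a regulator of excitatory neurons whose loss causes seizures in mice, was detected in all 38 saline cells, with 1.78, 164 and 469 TPM as the lowest, median and highest value. It was detected in 25 of 30 PTZ cells, with 0, 156 and 450 TPM. In nuclei it was detected in 33 of 41 FOS−, 34 of 40 FOS+ and 20 of 23 HC nuclei, with medians of 51.9, 25.7 and 32.4 TPM. Its highest value, 2109 TPM, belonged to an HC nucleus. *Celf2* exceeded *Celf4* in 39 of 41 FOS−, 39 of 40 FOS+ and 20 of 23 HC nuclei, and in 27 of 38 saline cells.

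The Nova genes were present in a minority of cells. *Nova2* (chromosome 7, 18925888 to 18965319, plus strand), the Nova gene of the forebrain, was detected in 16 of 38 saline cells, 14 of 30 PTZ cells, 17 of 41 FOS− and 15 of 40 FOS+ nuclei. It was detected in 0 of 23 HC nuclei, a count that allows a share of up to 14.8% by the exact 95% interval. *Nova1* (chromosome 12, 46694517 to 46818929, minus strand), the better known of the pair in brainstem and spinal cord, was detected in 9, 7, 6, 6 and 2 cells of the 5 groups. Neither Nova gene was detected in 18 saline cells, 12 PTZ cells, 22 FOS− nuclei, 22 FOS+ nuclei and 21 HC nuclei. The values of *Nova2* among cells that held it reached 74.9 TPM in saline cells and 472 TPM in FOS− nuclei.

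*Elavl3* (chromosome 9, 22015005 to 22052023, minus strand), which encodes HuC, was the most often detected of the 3 Elavl genes. It was detected in 25 of 38 saline cells, 17 of 30 PTZ cells, 26 of 41 FOS− and 26 of 40 FOS+ nuclei and 9 of 23 HC nuclei, with medians of 5.43, 6.14, 3.93, 2.89 and 0 TPM. *Elavl2* (chromosome 4, 91250763 to 91400785, minus strand), which encodes HuB, was detected in 1, 5, 3, 3 and 0 cells of the 5 groups. *Elavl4* (chromosome 4, 110203722 to 110351909, minus strand), which encodes HuD, was detected in 2, 3, 1, 1 and 2 cells. The FOS+ nucleus with *Elavl4* was nucleus 10, the one with oligodendrocyte markers, at 44.2 TPM, and none of the other FOS+ nuclei held it.

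A few cells carried most of the *Elavl2* and *Elavl4* reads. PTZ cell 35 held 274 TPM of *Elavl2* and 168 TPM of *Elavl4*, which made up 80.7% and 94.5% of all reads of these genes in PTZ cells. That cell also held 68.6 TPM of *Dcx*, 458 TPM of *Calb2*, 401 TPM of *Neurod1* and 161 TPM of *Sox11*, markers of immature granule neurons. Some of these were common in whole cells, with *Neurod1* detected in 31 of 38 saline and 23 of 30 PTZ cells. *Sox11* was detected in 21 and 18, *Dcx* in 13 and 14 and *Calb2* in 1 and 7 of them. In PTZ cell 35 *Rbfox3* and *Celf4* were at 0 and *Prox1* was at 743 TPM. Saline-treated cell 5 held 89.5 TPM of *Elavl2* and 43.1 TPM of *Elavl4*, with 97.4 TPM of *Rbfox3*. Its *Dcx* was at 296 TPM, *Neurod1* at 919 TPM, *Sox11* at 267 TPM and *Calb2* at 0. HC nucleus 11 held 1565 TPM of *Elavl4*, with *Dcx*, *Calb2*, *Rbfox3* and *Prox1* at 0, *Neurod1* at 437 TPM and *Sox11* at 32.5 TPM. The highest *Elavl2* value of any group was 336 TPM, in FOS− nucleus 45, which made up 95% of the reads of this gene in FOS− nuclei. That nucleus had *Dcx* and *Calb2* at 0, *Neurod1* at 20.4 TPM and *Sox11* at 111 TPM. These cells were named after their values were seen.

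**Figure D3:**
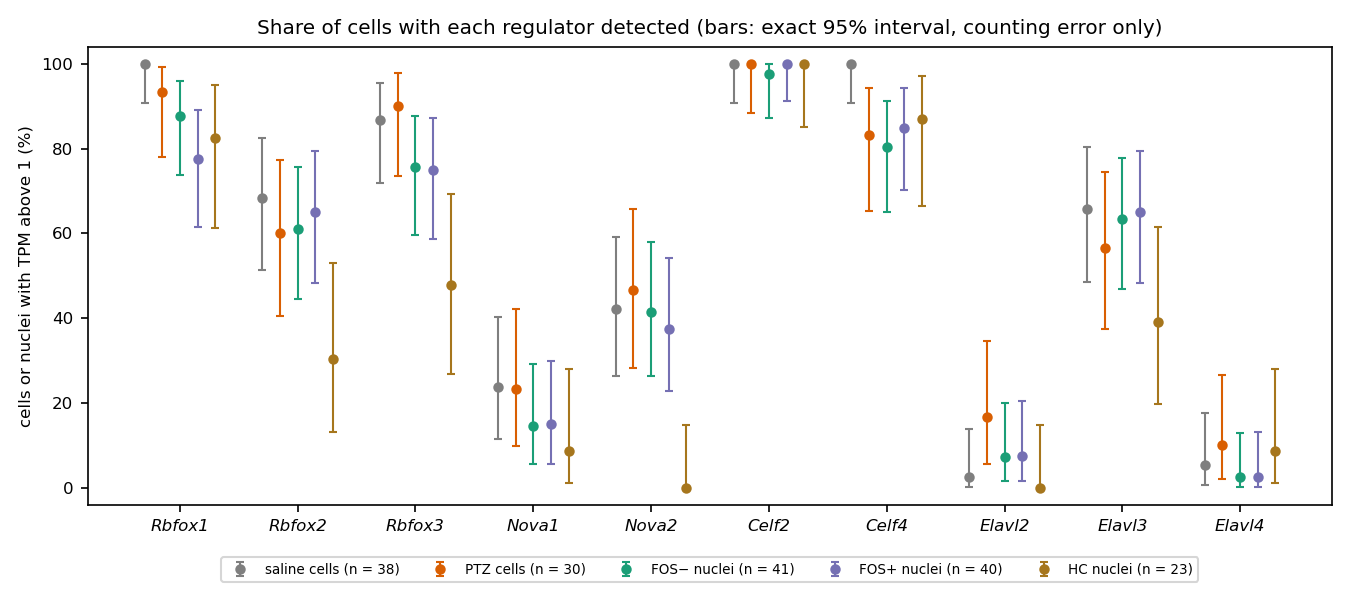
Share of kept cells or nuclei with a TPM above 1 for each gene (vertical axis, percent), with exact Clopper-Pearson 95% intervals that cover counting error only, in the 5 groups. *Celf2* is at or near 100% in every group, *Rbfox2*, *Rbfox3* and *Elavl3* are lowest in HC nuclei, and *Elavl2* and *Elavl4* stay under 20%.

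Ordered by mean level, the 10 genes of each group showed 1 step between neighbours that exceeded the larger of their SDs over cells. In saline cells the mean log2(TPM + 1) was 8.45 ± 1.98 for *Rbfox1*, 8.30 ± 0.69 for *Celf2*, 7.20 ± 1.26 for *Celf4* and 6.40 ± 2.76 for *Rbfox3*, and the next gene, *Rbfox2*, followed at 2.99 ± 2.22. In PTZ cells the same 4 genes led, at 7.85 ± 2.86 for *Rbfox1*, 7.86 ± 1.53 for *Celf2* and 6.03 ± 2.85 for *Celf4*, with *Rbfox3* between *Rbfox1* and *Celf4*. In NE nuclei the step came after *Celf2*, at 9.67 ± 2.14 in FOS− and 9.66 ± 1.41 in FOS+ nuclei, followed by *Rbfox1* at 5.71 ± 2.64 in the former and by *Rbfox3* at 5.26 ± 3.29 in the latter. In HC nuclei *Celf2* at 9.99 ± 1.36 was followed by *Rbfox1* at 5.82 ± 3.43. All other neighbours in the order lay closer to each other than the larger of their SDs over cells. These levels are per transcript length, since TPM corrects for it.

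The number of the 10 genes detected together in a cell was 5.95 ± 1.27 (SD) in saline cells, 5.80 ± 1.75 in PTZ cells, 5.32 ± 1.63 in FOS− nuclei, 5.30 ± 1.56 in FOS+ nuclei and 4.04 ± 1.22 in HC nuclei. No kept cell held fewer than 2. When each cell was thinned to 50000 reads, the share of cells with at least 1 read of *Rbfox3* was 85.4% in saline cells, 87.3% in PTZ cells, 71.0% in FOS− nuclei, 70.9% in FOS+ nuclei and 40.6% in HC nuclei. The share of *Rbfox3* in HC nuclei was thus also the lowest at an equal number of reads. HC nuclei were amplified on another platform and had a lower number of genes than the other groups. Among HC nuclei the median number of genes was 3160 without *Rbfox3* and 3213 with it. The part of platform and gene number in this share was not tested.

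FOS+ and FOS− nuclei were then compared, to ask whether these regulators differ between DGC nuclei of the same mouse sorted with and without FOS protein. From its own comparison the paper left out some FOS+ nuclei whose expression resembled that of FOS− nuclei. Such nuclei were not separated here, and all 40 kept FOS+ nuclei were used, of which 31 held *Arc*. None of the 8 members that passed the filter on low values (a TPM above 1 in at least 10% of NE nuclei) was higher or lower by 1 or more in mean log2(TPM + 1). *Elavl2* and *Elavl4* did not pass. Over all 13751 genes compared, 6.84% were higher and 9.36% were lower in FOS+ nuclei by that rule. The largest differences among the 8 were those of *Nova2*, with a mean of 1.45 ± 2.13 in FOS+ and 2.23 ± 2.92 in FOS− nuclei (difference -0.78), and of *Rbfox1*, with a difference of -0.71. *Rbfox3* differed by -0.28 and *Nova1* by 0.10. For *Celf2*, *Celf4*, *Rbfox2* and *Elavl3* the difference lay between -0.07 and 0.02. Every one of these differences was smaller than the SD over nuclei of either group, and the values of the 2 groups overlapped throughout. Without FOS+ nuclei 10 and 30 the difference was 0.20 for *Celf2*, 0.16 for *Rbfox2*, -0.66 for *Rbfox1* and -0.77 for *Nova2*, and again no member reached 1. The direction of *Rbfox1* depended on the measure, since the log2 ratio of mean TPM was 0.66.

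NE nuclei were amplified under 4 conditions, with 1 or 10 µM template-switching oligo and ERCC spike-ins diluted 1:200 or 1:2000, and each condition holds nuclei of both sorts. Within them *Nova2* was lower in FOS+ nuclei in 3 of 4, with differences from -1.73 to 0.72, and *Rbfox1* in 3 of 4, from -1.28 to 0.41. *Rbfox3* ranged from -2.25 to 0.34, with 1 of 4 below 0. *Celf2* ranged from -1.07 to 1.38. No member had the same sign in all 4 conditions among the 8 that passed the filter. One FOS− nucleus held 37.7% of all *Nova2* reads in that group, and leaving out any 1 nucleus kept the *Nova2* difference between -0.90 and -0.62.

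PTZ and saline cells were compared in the same way, to ask whether seizures left a trace in these genes. Cells of a treatment share a mouse or a pool of mice, which cannot be told apart from the treatment. The library names also carry a different tag for each treatment, whose meaning is not given. Whatever it marks cannot be told apart from the treatment either. Of 8 members that passed the filter, none was higher by 1 or more and 1, *Celf4*, was lower, against 4.43% and 9.22% of the 12630 genes compared. Without the PTZ cells whose total lay below the lowest saline total, these shares were 8.19% and 7.59% and *Celf4* differed by -1.03. *Celf4* had a mean log2(TPM + 1) of 6.03 ± 2.85 in PTZ and 7.20 ± 1.26 in saline cells, a difference of -1.17. This difference came with 5 PTZ cells in which *Celf4* was not detected, and among cells that held the gene it was 0.005. Without any 1 of these 5 cells (1, 8, 22, 31 and 35) it was between -0.99 and -0.96 and no longer reached 1. Cell 22 is the one with astrocyte markers, and without it the difference was -0.96.

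The cells without *Celf4* differed from each other in the other members. Cell 31 held 494 TPM of *Rbfox1* and 471 TPM of *Rbfox3*, with *Elavl2* and *Elavl4* at 0. Of the markers of immature granule neurons it held 1490 TPM of *Calb2*, 143 TPM of *Dcx*, 241 TPM of *Neurod1* and 366 TPM of *Sox11*. Cell 35 was the *Elavl2* and *Elavl4* cell described above. Cell 22, with its astrocyte markers, held no *Rbfox1*, *Rbfox3* or *Snap25*, with 84.7 TPM of *Celf2* and 95.7 TPM of *Prox1*. Cells 1 and 8 held 217 and 5.13 TPM of *Rbfox3*, and 3.75 and 1029 TPM of *Rbfox1*. Totals of these 5 cells lay between 381384 and 1618453 reads, within the range of PTZ cells, and their gene numbers lay between 3314 and 5224, below the median of 5760 of that group. The part of cell makeup in the missing *Celf4* was not tested.

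For the other members the difference of PTZ minus saline was 0.60 for *Rbfox3*, -0.60 for *Rbfox1*, -0.52 for *Rbfox2*, 0.45 for *Nova2*, -0.44 for *Celf2*, 0.06 for *Nova1* and -0.02 for *Elavl3*. Each was smaller than the SD over cells of either group. Without PTZ cell 22 the difference was -0.33 for *Rbfox1*, 0.84 for *Rbfox3* and 0.07 for *Elavl3*. The 2 genes under the filter differed by 0.57, for *Elavl2*, and 0.13, for *Elavl4*. The lowest total of a PTZ cell was 67212, against 401331 among saline cells. Without the PTZ cells below the latter the difference was -0.12 for *Rbfox1*, -0.26 for *Rbfox2* and -0.73 for *Celf2*.

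**Figure D4:**
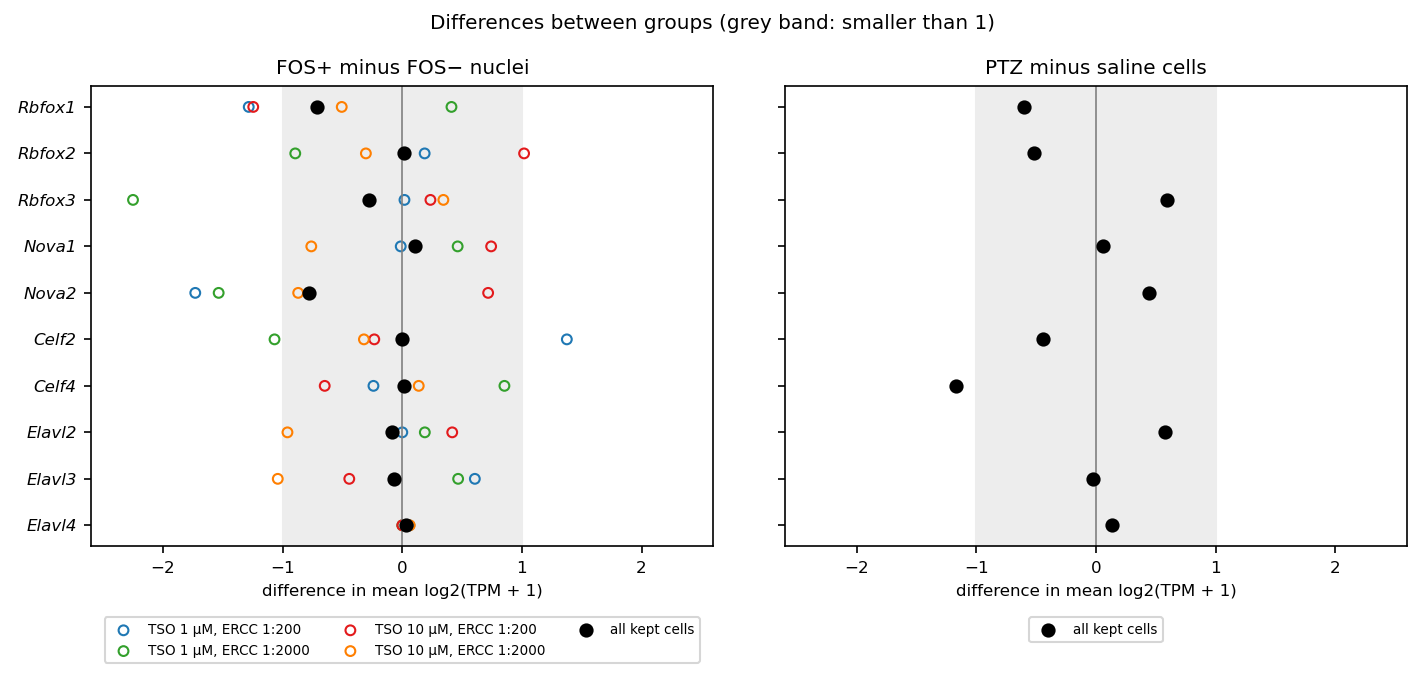
Difference in mean log2(TPM + 1) for each gene, FOS+ minus FOS− nuclei (left) and PTZ minus saline cells (right), with all kept cells as black points and each amplification condition of the NE nuclei as an open circle. The grey band covers differences smaller than 1. *Celf4* at -1.17 in the right panel is the one black point outside it. The open circles of a gene spread to both sides of 0 for every gene except *Elavl4*.

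Other RNA-binding genes were examined in the same comparisons, beside the shares of 6.84% higher and 9.36% lower over all genes. Of 38 further neuronal and family RNA-binding genes, 36 were compared between FOS+ and FOS− nuclei, of which 8 were higher and 4 lower by 1 or more. They ranged from -3.04 for *Srrm3*, an activator of neuronal microexons, to 2.09 for *Mbnl2*, a muscleblind splicing factor. Among 22 genes of the core spliceosome, hnRNP and SR groups, 6 were higher and 2 lower, with a median difference of 0.31 against -0.11 over all genes compared. The highest was *Hnrnpa2b1* at 2.46 and the lowest *U2af1*, the small subunit of the 3′ splice site factor, at -1.32. Of 12 textbook targets of these regulators, 11 were compared and none reached 1 in either direction, with a median of -0.13 and a range from -0.95 for *Agrn* to 0.98 for *Dab1*.

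Between PTZ and saline cells, where 4.43% of all genes were higher and 9.22% lower, 0 of 36 further RNA-binding genes were higher and 8 lower by 1 or more, with a median of -0.21 against -0.08 over all genes compared. The lowest was *Khdrbs2* at -2.25 and the highest *Msi2* at 0.97. Of the 22 core splicing genes 1, *Prpf8*, was lower, at -1.04, and none was higher. Of the 12 targets 1 was higher, *Vamp1* at 1.54, and 3 were lower. The tables give values per gene, so the inclusion of exons was not analysed here.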

How the data were processed

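RNA of single cells and nuclei was sequenced after Smart-seq2 amplification, or on a microfluidic chip for HC nuclei. Per the labels and the methods, the authors trimmed the reads and quantified them with RSEM and Bowtie 1.0.0 against GRCm38 with Ensembl genes. They deposited expected counts, estimated reads per gene without normalization, and TPM values, scaled within each cell. Such libraries carry no strand, so overlapping genes on opposite strands cannot be told apart.

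Groups came from the labels. Cells with a total expected count over 50000 and a gene number above the mean minus 2 SD of their table were kept, and all 23 HC nuclei. The limit on genes was -5.39 for whole cells and 693 for NE nuclei, and it removed no cell that the limit on counts had kept. The lowest gene number of a kept FOS+ nucleus was 1373. Detection was a TPM above 1. Differences are of mean log2(TPM + 1) over genes with a TPM above 1 in at least 10% of cells of the table, and 1 was the size rule. Log2 differences understate changes of low genes. Each group is 1 mouse or pool, so there is no test and no p. Intervals (exact, 95%) are on numbers of cells and cover counting error only, since the cells of a group share 1 mouse or pool. Reads lack molecular identifiers and may be copies of 1 molecule. Expected counts were rounded for CPM with TMM factors (edgeR 4.0.16) and for thinning. Other software was Python 3.11.15, pandas 2.3.3 and scipy 1.17.1. Sequences and positions are from GENCODE M21 (GRCm38).

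The named genes were the 10 members, and from each list the genes with the largest difference in either direction, of which 1 is not reported here. Members and lists were chosen with earlier results of these data known. Alternatives are listed in the closing section.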

Additional observations from a re-analysis of the deposited data

How the results depend on the processing

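The number of members detected in at least 50% of cells (6 in each group of whole cells and NE nuclei, 3 in HC nuclei) stayed within 1.5 times under every alternative: TPM above 0 or 5, a count of at least 5, all cells, thinning to 50000 reads, and HC nuclei without the 1 below the limit on genes. Of 300 member shares under alternatives, 289 stayed within the interval of the main share. With all 47 saline cells *Celf2* was detected in 80.9%, *Celf4* and *Rbfox1* in 85.1% and *Rbfox3* in 70.2%. Between FOS+ and FOS− nuclei the number of members lower by 1 rose from 0 to 1 with a pseudocount of 0.1 (*Rbfox1*, -1.02) and to 1 with the ratio of mean TPM (*Nova2*, -2.11). It stayed at 0 with a pseudocount of 10, all nuclei, CPM with TMM factors, no filter, the mean of the within-condition differences (*Nova2* -0.85, *Rbfox1* -0.66), without any 1 nucleus, and without the 2 or the 4 FOS+ nuclei with glial markers (added after seeing the data). The share of FOS+ nuclei with *Elavl4* went from 2.50% to 0 without those nuclei. By the ratio of mean TPM *Rbfox1* turned from -0.71 to 0.66. Between PTZ and saline cells the number lower fell from 1 to 0 with a pseudocount of 10 (*Celf4*, -0.69), all cells (-0.94) and the ratio of mean TPM (-0.28). It also fell to 0 without the 2 cells above 40 TPM of *Elavl2* and *Elavl4* (-0.93) and without PTZ cell 22, which held astrocyte markers (-0.96), both alternatives added after seeing the data (the latter by both marker limits), and ranged from 0 to 1 when each cell was left out. It stayed at 1 with a pseudocount of 0.1 (-1.64), CPM with TMM factors (-1.26), no filter (-1.17) and without PTZ cells below the lowest saline total (-1.03, also added after seeing the data). *Celf2* turned from -0.44 to 0.35 with all cells. The cause of these shifts was not tested. No member became higher by 1 in either comparison under any alternative for those that passed the filter. The number of all genes past 1 moved with the pseudocount, from 356 higher and 266 lower at 10 to 1763 and 2432 at 0.1 for NE nuclei, and from 43 and 195 to 1506 and 2330 for whole cells. For whole cells it was 560 and 1165 as reported, 572 and 486 with all cells, and 1012 and 938 without PTZ cells below the lowest saline total. No paired analysis was possible because the result comes from no test and cells with the same number do not belong together. Thinning to 50000 reads lowered the share of FOS+ nuclei with at least 1 read from 70.0% to 48.8% for *Elavl3* and from 87.5% to 72.4% for *Celf4*.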

Other observations

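Detection of the members in NE nuclei differed by amplification condition, taken over both sorts. *Rbfox3* was detected in 39 of 43 nuclei with 10 µM template-switching oligo, with a mean log2(TPM + 1) of 6.48 ± 2.39 (SD over nuclei), and in 22 of 38 with 1 µM, at 4.17 ± 3.90. *Celf4* was detected in all 22 nuclei with 10 µM oligo and ERCC at 1:2000, at 6.39 ± 1.79, and in 14 of 20, 14 of 18 and 17 of 21 in the other conditions. *Rbfox1* was detected in 11 of 20 nuclei with 1 µM oligo and ERCC at 1:200 and in all 18 with 1 µM and 1:2000. Nuclei with 10 µM oligo had a median of 6781 genes, against 5405 with 1 µM, at median totals of 214391 and 280871 reads. Nuclei of both sorts were spread over all conditions. What part of these shares the number of genes accounts for was not tested.

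The gene with the pattern most like a member was sought among genes detected in at least 50% of cells, by Pearson's r of log2(TPM + 1). Over 81 NE nuclei it was *Camk2a* for *Celf2* (r = 0.65), *Caly* for *Rbfox3* (r = 0.54) and *Chn1* for *Rbfox1* (r = 0.51). Over 68 whole cells it was *Pnmal2* for *Rbfox1* (r = 0.68), *Ppp3r1* for *Celf4* (r = 0.66) and *Nsfl1c* for *Rbfox3* (r = 0.64). These are the highest of 4754 and 5496 candidates, the cells share 1 mouse or pool per group, and the number of genes per cell itself correlated with *Rbfox3* at r = 0.40 over nuclei. Among pairs of members, *Rbfox3* and *Celf4* had r = 0.38 over NE nuclei and 0.45 over whole cells, and *Rbfox1* and *Rbfox3* had r = 0.14 and 0.41. These values pool all amplification conditions and all kept cells. With 10 µM oligo the mean of *Celf4* was 5.24 ± 2.49, against 3.75 ± 3.08 with 1 µM, and that of *Rbfox3* was higher too. Over whole cells the number of genes correlated with *Rbfox3* at r = 0.34, *Rbfox1* at 0.40 and *Celf4* at 0.41. The part of these in the r of pairs was not tested. *Elavl2* and *Elavl4* had r = 0.80 over whole cells, of which 3 held both, and -0.04 over NE nuclei, of which none did.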
